A study of Homo sapiens with 3 samples.

Results

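Cadherins and protocadherins are the 89 of 36601 genes in the deposited tables whose symbol is CDH followed only by digits or starts with PCDH, with 4 antisense transcripts left out. They comprised 23 CDH genes, 13 PCDH genes outside the protocadherin clusters and 53 genes of the alpha, beta and gamma clusters. The RNA came from stem cell-derived islets, clusters of hormone-making cells differentiated from the embryonic stem cell line HUES8, which is human and established. A magnetic sort for CD49a, the integrin subunit that ITGA1 encodes, gave the samples, and 3 groups were compared: CD49a-positive cells, CD49a-negative cells and unsorted cells, each left to re-aggregate for 7 days. The groups shared the cell line and the differentiation, and each was 1 droplet library from 1 line, so a difference between libraries has no replicate check and carries no p-value.

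Cadherins are calcium-dependent adhesion proteins of the cell surface. Classical cadherins bind their own kind on the neighbouring cell and are tied to actin through catenins, while protocadherins have longer extracellular parts, weaker adhesion and different partners inside the cell. In islets, E-cadherin and N-cadherin join endocrine cells to each other and are known for their part in islet architecture and coordinated hormone release.

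After cells with under 1000 genes or over 20% mitochondrial counts were left out, the positive, negative and unsorted libraries held 2394, 1976 and 2256 cells with 122372168, 84568295 and 110105407 unique molecular identifiers (UMIs, each a counted RNA molecule). ITGA1 itself stood at 108 CPM (counts per 1000000 UMIs of the same cells) in positive, 33.2 CPM in negative and 66.2 CPM in unsorted cells. Cells were placed in 4 classes by which of INS, GCG, SST or TPH1 led by at least 2-fold, so no cadherin chose them. INS-rich cells numbered 1609, 393 and 789 in the positive, negative and unsorted libraries, and GCG-rich cells 212, 441 and 389. There were 41, 109 and 93 SST-rich and 77, 368 and 359 TPH1-rich cells, which makes the positive library the thinnest for both. Among lists of class markers, 3 of 6 for INS-rich, 2 of 6 for GCG-rich, 2 of 5 for SST-rich and 5 of 5 for TPH1-rich cells were at least 2-fold highest in their own class in all 3 libraries. The positive and negative libraries shared 6 cell barcodes, the positive and unsorted 2, and the negative and unsorted 4. All intervals below are 95% exact intervals that cover counting error only.

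A few members gave most of the family's UMIs, counted per gene with no correction for its length. Together the members made up 2567 CPM in positive, 1517 CPM in negative and 1981 CPM in unsorted cells. Of the 88 members with a level shown, 12, 12 and 11 reached 20 CPM in the positive, negative and unsorted libraries, and 6, 7 and 7 reached 100 CPM. PCDH7 and CDH18, the highest pair, took 55.2% of the members' UMIs in positive, 32.2% in negative and 43.6% in unsorted cells. Counting classes as well, 17 members reached 20 CPM and 50 UMIs somewhere, and 71 did not. Over all cells the highest of those 71 was CDH6, a type II cadherin known from the embryonic kidney, in the positive and negative libraries, at 15.9 and 9.02 CPM. In the unsorted library it was PCDH10, a delta-2 protocadherin, at 13.6 CPM, against 11.3 CPM for CDH6. Of the 71, 27 stayed under 1 CPM in every library and class. Among them were CDH5, the endothelial VE-cadherin, CDH15, the muscle M-cadherin, and CDH16, the kidney cadherin. So were 17 of 22 gamma protocadherins, whose levels are uncertain because most share a 3′ end.

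**Figure D1:**
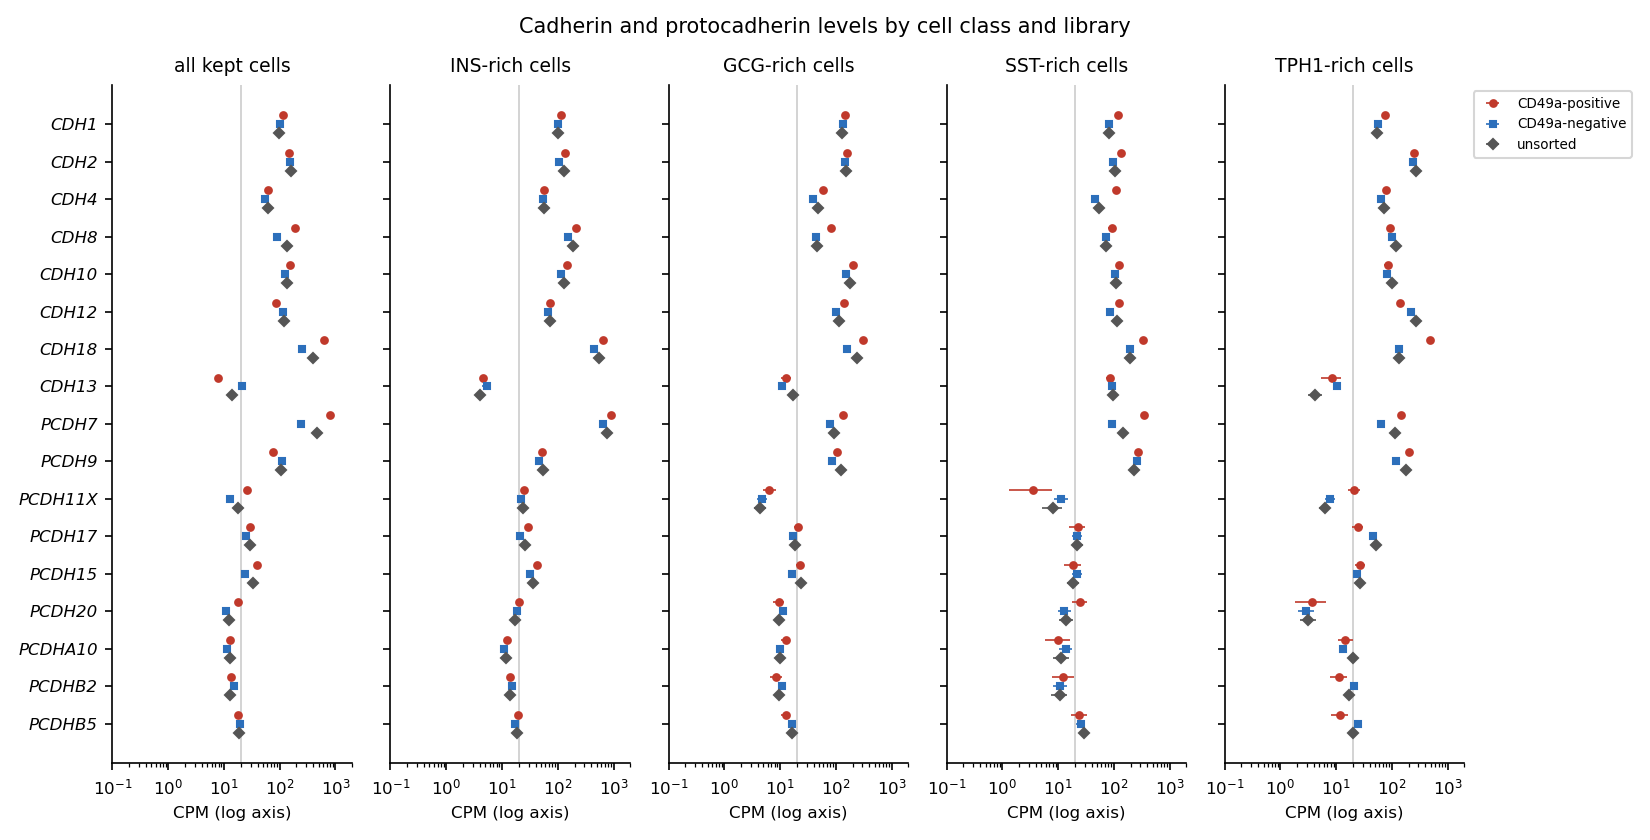
CPM on a log axis for the 17 members that reached 20 CPM (grey line) and 50 UMIs, over all kept cells and in the 4 classes; points are the CD49a-positive, CD49a-negative and unsorted libraries and bars are 95% counting intervals. PCDH7 and CDH18 stand highest in INS-rich cells, and CDH13 exceeds 20 CPM in SST-rich cells of every library, where it lies between 85.6 and 95.1 CPM.

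Type I classical cadherins, the core proteins of adherens junctions, were present in all 4 classes. CDH1 (E-cadherin, the epithelial adherens junction protein; chromosome 16, 68737225 to 68835548) stood at 115, 103 and 99.1 CPM in positive, negative and unsorted cells. CDH2 (N-cadherin, the neural and mesenchymal counterpart; chromosome 18, 27950966 to 28177446) stood at 145, 151 and 158 CPM. CDH4 (R-cadherin, first known from retina; chromosome 20, 61252426 to 61940617) stood at 62.2, 53.6 and 60.9 CPM. None of the 3 differed by 2-fold between libraries over all cells.

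E-cadherin and N-cadherin were highest in different classes. CDH1 was highest in GCG-rich cells of all 3 libraries, at 149 CPM in positive, 133 CPM in negative and 129 CPM in unsorted cells. It was lowest in TPH1-rich cells, at 76.0, 55.8 and 54.6 CPM. CDH2 ran the other way in the TPH1-rich cells, its highest class, where it stood at 251, 244 and 269 CPM, 1.55-fold (1.42 to 1.69), 1.71-fold (1.62 to 1.79) and 1.76-fold (1.67 to 1.85) over GCG-rich cells, the next class. For each CDH1 UMI there were 3.30 (2.84 to 3.84), 4.38 (4.04 to 4.76) and 4.92 (4.53 to 5.35) CDH2 UMIs in TPH1-rich cells of the positive, negative and unsorted libraries. The same ratio was 1.20 (1.16 to 1.23), 1.06 (0.992 to 1.13) and 1.28 (1.24 to 1.33) in INS-rich cells, and it lay between 1.08 and 1.31 in GCG- and SST-rich cells. The 3 intervals of TPH1-rich cells all lay above those of the other classes.

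UMIs of both genes were often found in the same cell barcode. No class lacked either gene, so the share that free RNA alone gives was not measured. A UMI of each was found in 79.1% (77.0 to 81.1) of INS-rich cells in the positive library, 80.2% (75.9 to 84.0) in the negative and 86.9% (84.4 to 89.2) in the unsorted one, at median depths of 53677, 43172 and 57138 UMIs a cell. In TPH1-rich cells the shares were 72.7%, 59.8% and 62.4% at lower median depths of 34133, 28928 and 29770 UMIs. GCG-rich cells had higher shares than INS-rich cells, 87.7%, 91.8% and 89.5%, at lower depths of 37804.5, 39361 and 40305 UMIs. The shares were 82.9%, 70.6% and 57.0% in SST-rich cells, at depths of 35294, 37976 and 32158 UMIs. The part of depth in these shares was not tested. ZEB1, a transcription factor that represses CDH1 in epithelial cells, was the one repressor of 6 listed with enough counts. It was at least 2-fold highest in TPH1-rich cells, a size that CDH2 did not reach. ZEB1 stood there at 272, 241 and 319 CPM, against 97.2, 100.04 and 103 CPM in INS-rich cells. Whether ZEB1 has a part in the CDH1 level was not tested.

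Type II cadherins, whose binding interface differs from that of type I and which are known mainly from the nervous system, held CDH18, which had the most UMIs of any member in the negative library and the second most in the positive and unsorted ones. CDH18 (chromosome 5, 19472951 to 20575873) stood at 623 CPM in positive, 246 CPM in negative and 404 CPM in unsorted cells. It was highest in INS-rich cells of each library, at 650.0, 442 and 561 CPM. Outside them it was lower by 2.29-fold (2.14 to 2.46) in the negative library, where SST-rich cells came next, and by 2.29-fold (2.22 to 2.37) in the unsorted one, where GCG-rich cells did. In the positive library TPH1-rich cells came next, and INS-rich cells exceeded them by 1.37-fold (1.30 to 1.45).

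CDH8 (chromosome 16, 61647242 to 62037035) was also highest in INS-rich cells, at 212, 151 and 185 CPM in the positive, negative and unsorted libraries, against 81.7, 45.0 and 45.9 CPM in GCG-rich cells, its lowest class. TPH1-rich cells came next, and INS-rich cells exceeded them by 2.25-fold (2.001 to 2.54), 1.47-fold (1.38 to 1.57) and 1.56-fold (1.48 to 1.65). CDH10 (chromosome 5, 24487100 to 24644978) had its peak in GCG-rich cells, at 200.3, 155 and 178 CPM, and stood 1.38-fold (1.31 to 1.45), 1.36-fold (1.28 to 1.44) and 1.36-fold (1.30 to 1.42) over INS-rich cells. CDH12 (chromosome 5, 21750673 to 22853622) peaked in TPH1-rich cells, at 142, 219 and 268 CPM. It exceeded GCG-rich cells there by 2.19-fold (2.07 to 2.33) in the negative and 2.31-fold (2.18 to 2.44) in the unsorted library, and by 1.03-fold (0.923 to 1.16) in the positive one, an interval that spans 1. CDH10, CDH12 and CDH18 lie within the same arm of chromosome 5, and their peaks fell in 3 different classes.

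CDH13 (T-cadherin; chromosome 16, 82626803 to 83800640) lacks the transmembrane and intracellular parts, is held to the membrane by a lipid anchor and binds adiponectin. Over all cells it was scarce, at 7.89, 21.0 and 14.0 CPM in positive, negative and unsorted cells. In SST-rich cells it stood at 85.6 CPM (72.2 to 101) in positive, 93.3 CPM (84.5 to 103) in negative and 95.1 CPM (85.0 to 106) in unsorted cells. The next class, GCG-rich cells, held 12.9, 10.997 and 17.3 CPM, so SST-rich cells were 6.65-fold (5.15 to 8.60), 8.48-fold (7.19 to 10.0) and 5.50-fold (4.69 to 6.46) higher. A CDH13 UMI was found in 41.5%, 48.6% and 45.2% of SST-rich cells, against 7.15%, 9.16% and 8.75% of INS-rich cells, although INS-rich cells were the deeper ones in every library (median depths of 35294, 37976 and 32158 UMIs in SST-rich cells). The remaining SST-rich cells had no CDH13 UMI.

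The delta-1 protocadherins have 7 extracellular cadherin repeats. PCDH7 (chromosome 4, 30720415 to 31146805), also known as a binding partner of the phosphatase inhibitor SET, gave more UMIs than any other member in INS-rich cells. There it stood at 909.5 CPM in positive, 646 CPM in negative and 763 CPM in unsorted cells. SST-rich cells, the next class, held 347, 91.5 and 147 CPM, and INS-rich cells exceeded them by 2.62-fold (2.42 to 2.85), 7.06-fold (6.40 to 7.81) and 5.19-fold (4.75 to 5.68). GCG-rich cells held 135, 78.1 and 94.5 CPM and TPH1-rich cells 146, 64.9 and 113 CPM. In the median INS-rich cell PCDH7 stood at 661, 469.6 and 585 CPM, and no single cell gave more than 1.56% of the class's PCDH7 UMIs.

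INS UMIs were also found in the other classes. INS in GCG-rich cells was at 9.91%, 10.6% and 10.1% of its level in INS-rich cells of the positive, negative and unsorted libraries, and PCDH7 there was at 14.8%, 12.1% and 12.4% of its own. In SST-rich cells INS was at 19.6%, 14.0% and 17.7% and PCDH7 at 38.1%, 14.2% and 19.3%. CDH18 in GCG-rich cells was at 47.1%, 36.3% and 43.6%, and CDH8 at 38.5%, 29.9% and 24.8%. In the negative and unsorted libraries the PCDH7 share lay 1.53 and 2.33 percentage points above the INS share in GCG-rich cells and 0.16 and 1.58 points above it in SST-rich cells. In TPH1-rich cells INS was at 10.2%, 5.68% and 4.59% and PCDH7 at 16.1%, 10.04% and 14.8%, so the gap was 5.89, 4.37 and 10.2 points in the positive, negative and unsorted libraries. It was 4.90 and 18.5 points in GCG- and SST-rich cells of the positive library, and the shares of CDH18 and CDH8 lay further above INS in every library. The part of INS-rich cells' RNA in the PCDH7 levels of other classes was not tested.

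PCDH7 and CDH18 share a sequence feature, a long run of A and G, so both windows are shown. This feature was not fixed in advance, so the shares of windows below describe it and are no test. The windows are the 250 bases before the RefSeq start (GRCh38.p14), written 5′ to 3′ on the gene's strand. The longest run of A and G, or of C and T, is in capitals.
PCDH7, chr4:30720119-30720368, plus strand: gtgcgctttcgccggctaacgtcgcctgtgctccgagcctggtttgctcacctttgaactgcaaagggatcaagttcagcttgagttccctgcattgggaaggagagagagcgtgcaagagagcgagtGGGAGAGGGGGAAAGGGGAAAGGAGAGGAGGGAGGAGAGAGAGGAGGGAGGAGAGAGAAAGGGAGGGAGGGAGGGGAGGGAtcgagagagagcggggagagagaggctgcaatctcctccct
CDH18, chr5:20575714-20575963, minus strand: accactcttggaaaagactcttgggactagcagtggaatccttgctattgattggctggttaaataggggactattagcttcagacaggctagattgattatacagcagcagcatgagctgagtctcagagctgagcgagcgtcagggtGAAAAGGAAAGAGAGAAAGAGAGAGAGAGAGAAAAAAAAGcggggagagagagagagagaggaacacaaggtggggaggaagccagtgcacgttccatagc
The run spans 81 bases before PCDH7 and ends 41 bases short of the start. One as long was found in 9 of 35116 windows of this length in the reference table, or 0.0256%, and the median window's longest run was 11 bases. The CDH18 run spans 40 bases, and 0.313% of windows hold one as long. These were the longest and second longest among the 70 members with a window, the next being 37 bases and the members' median 11 bases. The match describes the sequence and says nothing of a factor that binds it.

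PCDH9 (chromosome 13, 66302834 to 67230445), a delta-1 member known from brain, was highest in SST-rich cells, at 276, 265 and 231 CPM in the positive, negative and unsorted libraries. TPH1-rich cells followed, at 204, 117 and 183 CPM, and INS-rich cells were lowest, at 51.8, 45.4 and 55.5 CPM. PCDH11X (chromosome X, 91779261 to 92623230) was highest in INS-rich cells, at 25.3, 21.6 and 23.7 CPM, and did not reach 20 CPM in GCG- or SST-rich cells of any library. Its Y-linked copy PCDH11Y is counted as a member and its level is not reported. PCDH17 (chromosome 13, 57631810 to 57729311), a delta-2 member known to act at synapses, stood at 24.7, 46.1 and 52.8 CPM in TPH1-rich cells and at 28.9, 21.4 and 26.2 CPM in INS-rich cells. Its highest class was therefore TPH1-rich in the negative and unsorted libraries and INS-rich in the positive one.

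PCDH15 (chromosome 10, 53802771 to 55627942), known as part of the tip link of inner ear hair cells with CDH23, was highest in INS-rich cells, at 42.0, 31.5 and 36.3 CPM in the positive, negative and unsorted libraries. CDH23 itself stayed near the bottom, at 2.39, 1.10 and 1.53 CPM over all cells. PCDH20 (chromosome 13, 61409685 to 61415522) was low in TPH1-rich cells, at 3.67, 2.93 and 3.18 CPM, and stood at 20.2, 18.4 and 17.1 CPM in INS-rich cells.

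**Figure D2:**
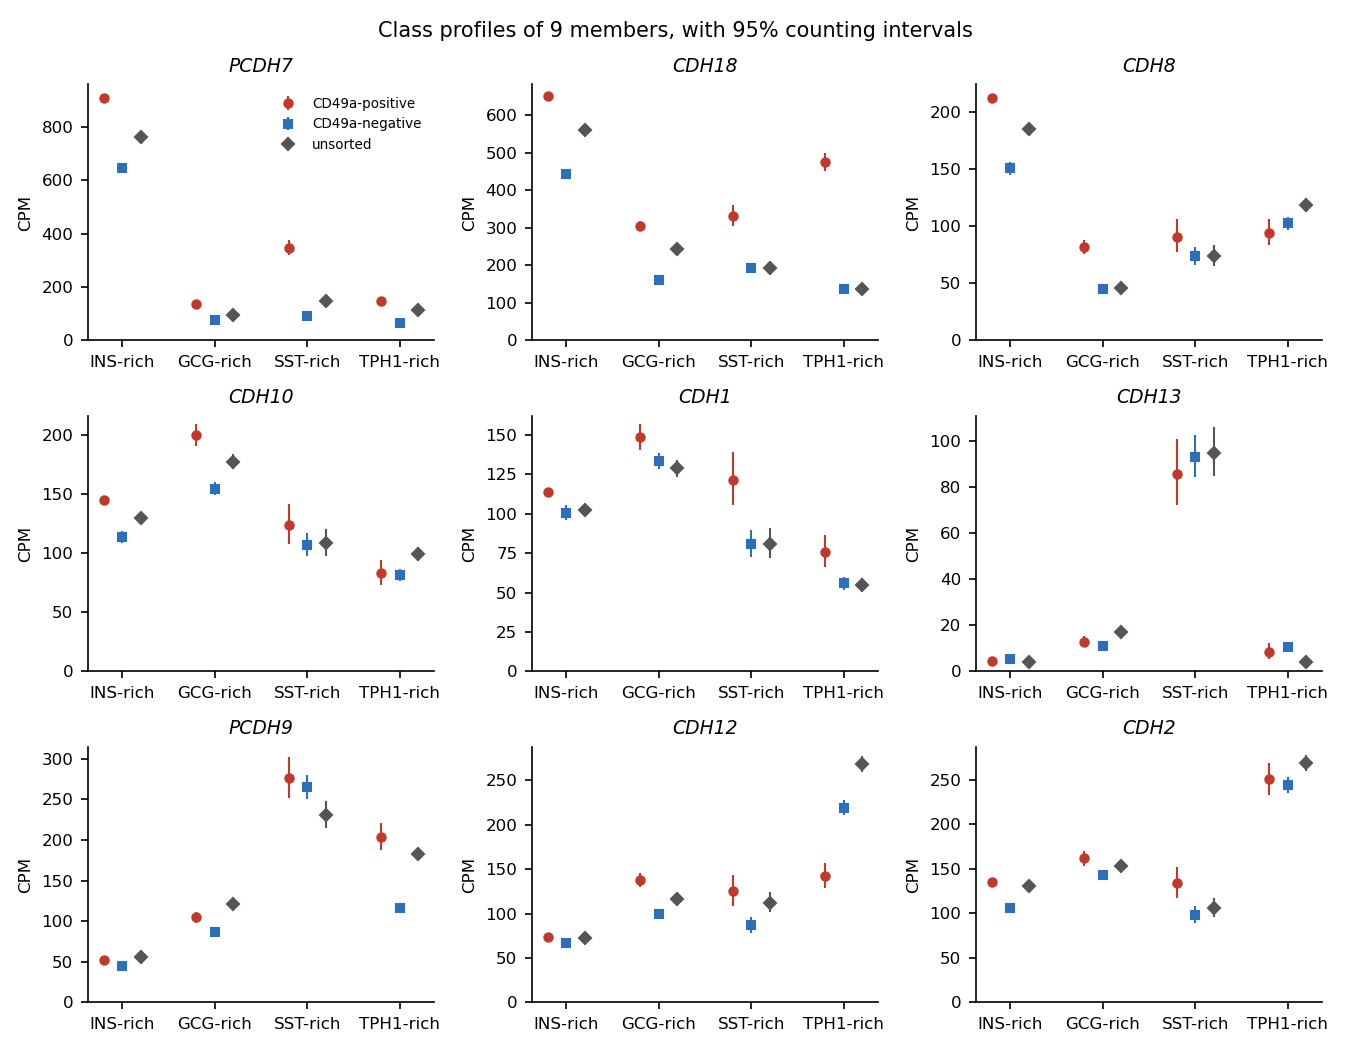
CPM in the 4 classes for 9 members, each panel with its own axis from 0, for the CD49a-positive, CD49a-negative and unsorted libraries with 95% counting intervals. INS-rich cells lead for PCDH7, CDH18 and CDH8, GCG-rich cells for CDH10 and CDH1, SST-rich cells for CDH13 and PCDH9, and TPH1-rich cells for CDH12 and CDH2, in all 3 libraries.

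The clustered protocadherins give each neuron a surface identity by combining isoforms, and most were near the floor here. Summed over their 15, 16 and 22 members, the alpha, beta and gamma clusters stood at 40.4, 70.5 and 14.1 CPM in positive cells, 41.5, 68.5 and 14.2 CPM in negative cells and 42.3, 68.3 and 15.2 CPM in unsorted cells. In the GENCODE 29 annotation 15 of 15 alpha and 21 of 22 gamma genes share a 3′ end with another member of their cluster. None of the 16 beta genes do. How reads from shared ends were counted was not examined. The alpha and gamma levels and sums are therefore uncertain, may be too low, and cannot be ranked against the beta sum. PCDHA10, the one alpha gene that reached 20 CPM in a class, is among those uncertain. The beta genes PCDHB2 (chromosome 5, 141094578 to 141098703) and PCDHB5 (chromosome 5, 141135218 to 141138625) consist of exon throughout. PCDHB2 stood at 13.1, 14.9 and 13.1 CPM and PCDHB5 at 17.9, 19.1 and 18.7 CPM in positive, negative and unsorted cells. Neither reached 20 CPM over all cells of any library.

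The windows before the RefSeq starts of these 2 beta genes are shown with their longest shared run of letters in capitals. The run was taken from these 2 windows, so 2 of the beta windows counted below hold it by construction.
PCDHB2, chr5:141094365-141094614, plus strand: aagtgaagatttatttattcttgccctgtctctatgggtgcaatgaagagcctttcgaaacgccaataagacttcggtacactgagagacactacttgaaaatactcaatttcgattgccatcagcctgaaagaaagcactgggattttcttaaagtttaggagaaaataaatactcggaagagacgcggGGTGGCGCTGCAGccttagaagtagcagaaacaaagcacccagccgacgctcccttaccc
PCDHB5, chr5:141134956-141135205, plus strand: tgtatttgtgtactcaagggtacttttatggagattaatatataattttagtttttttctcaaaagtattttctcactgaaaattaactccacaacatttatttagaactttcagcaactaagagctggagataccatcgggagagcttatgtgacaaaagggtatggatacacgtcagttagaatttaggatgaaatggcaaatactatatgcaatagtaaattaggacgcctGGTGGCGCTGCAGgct
On both strands, GGTGGCGCTGCAG was found in the windows of 9 of 14 beta genes, 0 of 13 alpha genes, 0 of 20 gamma genes and 0 of 23 members outside the clusters. Of all 35116 windows, 14 or 0.0399% hold it, so most holders were beta protocadherins. Its inner letters TGGCGCTG were found in 11 of 14 beta windows and in 1.45% of all windows. The run resembles the conserved element known before clustered protocadherin exons, and its absence from a window says only that these letters are not in it.

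By class, 17 members had enough counts in at least 1 class to be set against all genes. PCDH7 alone passed the 2-fold rule for INS-rich cells in all 3 libraries (10 CPM added to each level), 1 of 17 members against 0.362% of all 9107 genes. CDH13 alone passed for SST-rich cells, again 1 of 17, against 0.285% of all genes. No member passed for GCG-rich cells, against 0.417% of all genes, or for TPH1-rich cells, against 1.66%. The class with the highest level was the same in all 3 libraries for 12 of 17 members. These were 5 in INS-rich, 2 in GCG-rich, 3 in SST-rich and 2 in TPH1-rich cells. For PCDHA10, PCDHB2, PCDH17, PCDH20 and CDH4 that class differed between libraries. The like share over all genes was not computed. Some of the leads over the next class had intervals that span 1. They were those of PCDHB5 in the positive and negative libraries, and of PCDH11X and CDH12 in the positive one. In the negative and unsorted libraries alone CDH18 also passed for INS-rich and CDH12 for TPH1-rich cells, a comparison added after the values were seen.

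The sort comparison asks how cadherin RNA differed between re-aggregated CD49a-positive and CD49a-negative cells. Over all kept cells 2 of 13 members passed 2-fold higher in positive cells, PCDH7 and CDH18, against 0.526% of 7989 genes, and none passed lower, against 0.513% of genes. PCDH7 stood at 793 CPM in positive, 241 CPM in negative and 458 CPM in unsorted cells, which makes positive over negative 3.29-fold (3.24 to 3.34). CDH18 was 2.53-fold (2.49 to 2.57) higher and CDH8 2.09-fold (2.04 to 2.15), the last just under the rule at a log2 ratio of 0.99 once 10 CPM are added. PCDH11X, at 25.7, 12.6 and 17.6 CPM, was 2.04-fold (1.91 to 2.19) higher, with a log2 ratio of 0.66 once 10 CPM are added. Unsorted cells lay between the sorted ones for all of these. Against unsorted cells no member of 12 passed in positive cells, where 0.282% of genes were at least 2-fold apart, or in negative cells, where 0.0127% were.

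The libraries also differed in their classes, with INS-rich cells at 67.2% of the positive library, 19.9% of the negative library and 35.0% of the unsorted one. The mean of the 4 within-class log2 ratios of positive over negative was 1.02 for PCDH7, 0.98 for CDH18 and 0.34 for CDH8. Over all cells the log2 ratios were 1.68, 1.31 and 0.99. For PCDH7 the class ratios were 0.49 in INS-, 0.72 in GCG-, 1.81 in SST- and 1.06 in TPH1-rich cells. The mean gives the classes with few positive cells, SST-rich (41) and TPH1-rich (77), the same weight as the others. A ratio of levels averaged over the classes was not computed. For CDH12, PCDH9, CDH2 and PCDH17 the class mean had the opposite sign to the ratio over all cells. For CDH12 the log2 ratio was −0.35 over all cells and the class mean was 0.11. The same 2 values were −0.49 and 0.30 for PCDH9, −0.05 and 0.23 for CDH2, and 0.17 and −0.04 for PCDH17. For CDH13 they were −0.79 and −0.06. Its plain fold was 0.376 (0.348 to 0.408) over all cells, while within SST-rich cells its fold was 0.918 (0.754 to 1.11), an interval that spans 1.

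Within INS-rich cells the 13 members with enough counts all stood higher in positive than in negative cells, though none by 2-fold, the size that 0.104% of 7684 genes reached. CDH18 was highest by 1.47-fold (1.44 to 1.51), followed by CDH8 at 1.41-fold (1.35 to 1.47) and PCDH7 at 1.41-fold (1.38 to 1.44). These sizes depended on the class rule. With classes from clusters built from all genes, the log2 ratios of CDH18, CDH8 and PCDH7 were 0.24, 0.18 and 0.18, against 0.55, 0.47 and 0.49. Those of CDH2 and PCDH9 rose to 0.47 and 0.40, from 0.32 and 0.16. CDH2 was 1.27-fold (1.22 to 1.34), CDH10 1.28-fold (1.22 to 1.34) and CDH1 1.13-fold (1.07 to 1.19) higher. The members' median log2 ratio was 0.31, against 0.02 over all genes tested, of which 53.7% lay above 0. Within GCG-rich cells 11 of 11 members stood higher in positive cells, with a median of 0.35 against 0.04 over all genes, 55.3% of which lay above 0. CDH18 was 1.91-fold (1.81 to 2.01), CDH8 1.81-fold (1.64 to 2.004) and PCDH7 1.73-fold (1.60 to 1.86) higher there. With classes from the clusters, the log2 ratios of CDH18 and CDH8 in GCG-rich cells were 0.52 and 0.40, against 0.89 and 0.74. No member reached 2-fold in GCG-rich cells, and 0.142% of 7772 genes did.

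**Figure D3:**
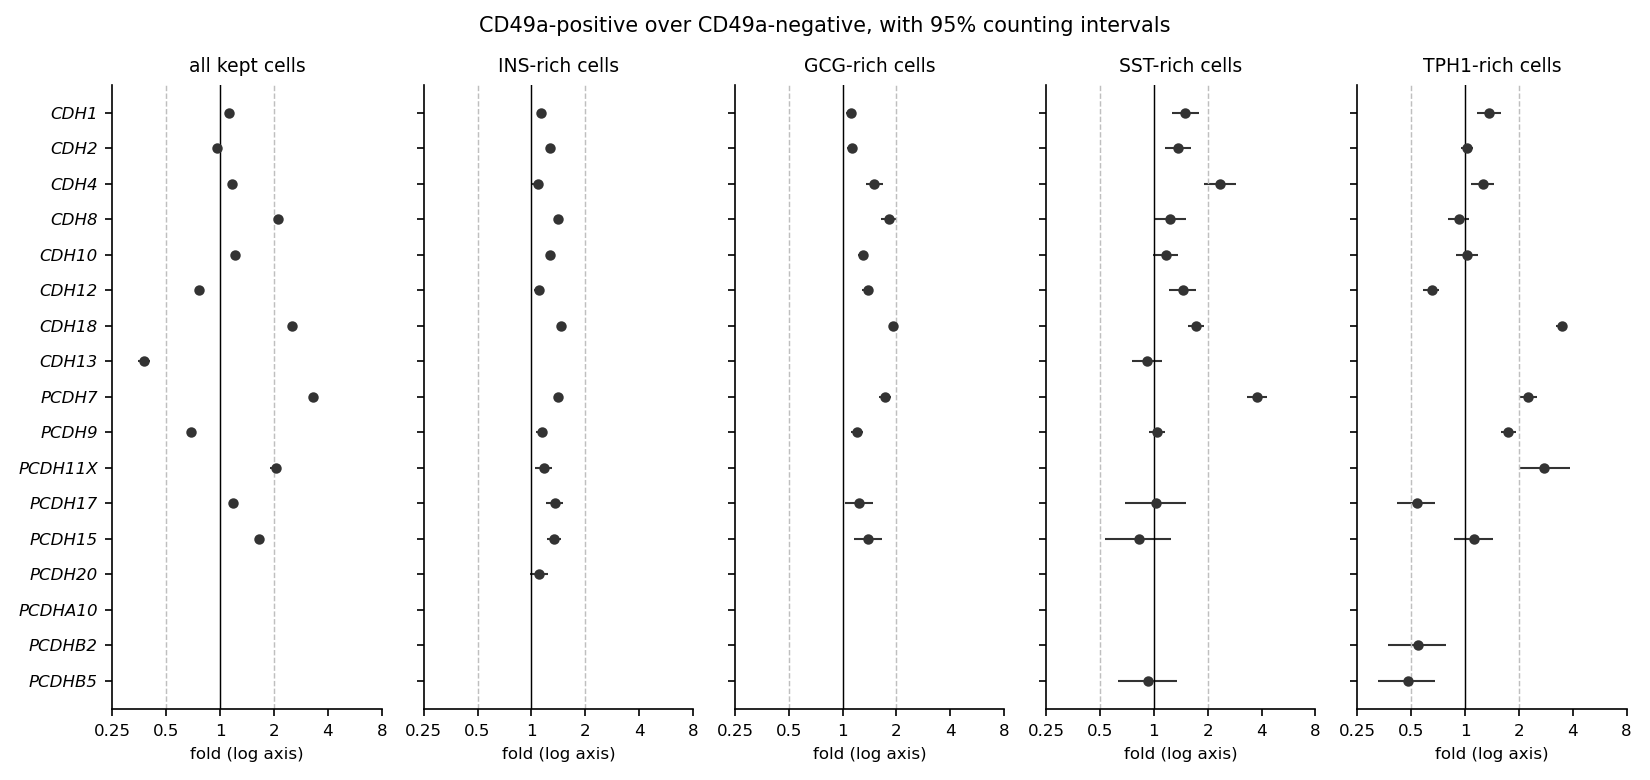
Fold of CD49a-positive over CD49a-negative cells on a log axis for each member with enough counts, over all kept cells and in the 4 classes, with 95% counting intervals; the solid line marks 1 and dashed lines mark 2-fold. All points of INS- and GCG-rich cells lie right of 1 and short of 2, while TPH1-rich cells have points on both sides, from 0.478 for PCDHB5 to 3.47 for CDH18.

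Gene length moved with these ratios. The 17 members reported with values had a median gene length of 389.8 kb, against 103 kb for the other 71. Among all tested genes of at least 100 kb, 80.0% lay above 0 in INS-rich cells and 92.0% in GCG-rich cells, with median log2 ratios of 0.10 and 0.29. Among genes under 100 kb the shares were 42.6% and 39.9%, with medians of −0.03 and −0.06. In GCG-rich cells the members' median of 0.35 was close to that of long genes. In INS-rich cells the members' 0.31 stood above the long genes' upper quartile of 0.17. With each cell weighted equally the members' median there was 0.16, and the long genes' quartiles under that weighting were not computed. In TPH1-rich cells the members' 0.08 lay below the long genes' lower quartile of 0.14. The members' medians also take in members under 100 kb, so they do not set long members against long genes. In TPH1-rich cells these were PCDHB5 (3.4 kb), PCDHB2 (4.1 kb), PCDH17 (97.5 kb) and CDH1 (98.3 kb). Their log2 ratios were −0.67, −0.53, −0.69 and 0.39. A median of the long members alone was not computed. The members' median was 0.27 in SST-rich cells and 0.18 over all kept cells, against 0.26 and 0.13 for long genes. The long genes were not matched to the members' lengths. The nuclear RNA MALAT1 had 12628 CPM in INS-rich cells of the positive library, against 11996 CPM in the negative library, and 17866 CPM in GCG-rich cells of the positive library, against 14852 CPM in the negative library. Whether intronic reads were counted is not given in the sources used here, and the part of gene length in the members' ratios was not tested.

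**Figure D4:**
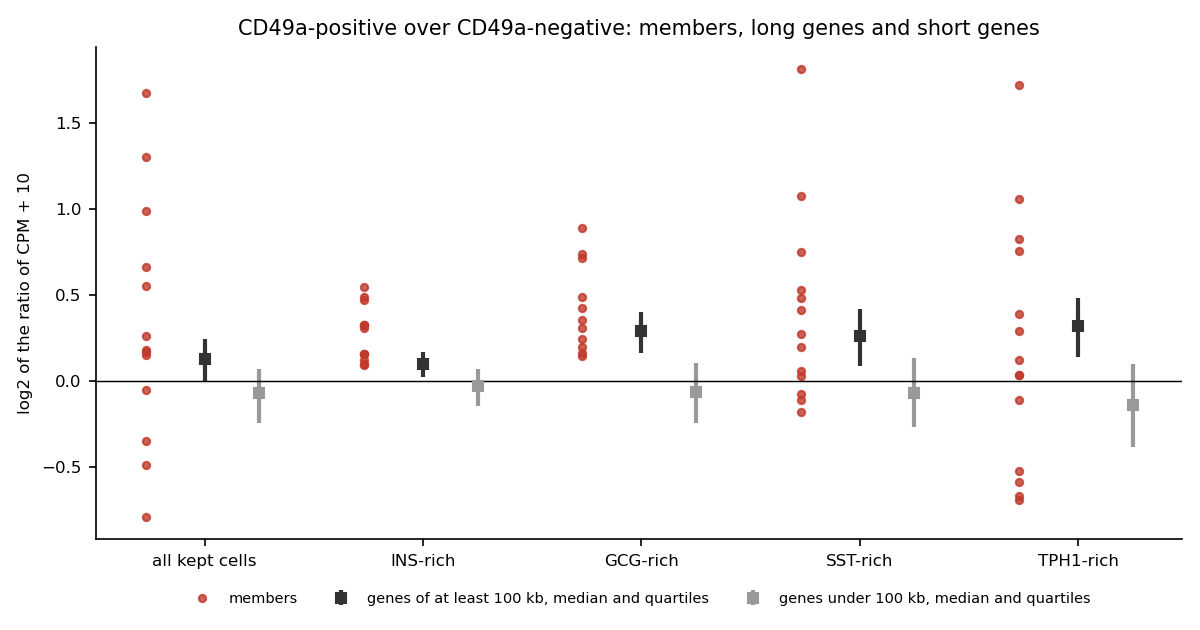
Log2 ratio of CD49a-positive over CD49a-negative CPM, with 10 CPM added, over all kept cells and in the 4 classes: each member as a point, and the median with quartiles of all tested genes of at least 100 kb and under 100 kb. The medians of long genes are above 0 in every column, from 0.10 in INS-rich to 0.32 in TPH1-rich cells, and those of shorter genes are below 0.

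Within SST-rich cells 2 of 13 members passed 2-fold, PCDH7 and CDH4, both higher in positive cells, against 0.785% of 7771 genes at least 2-fold apart. PCDH7 stood at 347 CPM in positive, 91.5 CPM in negative and 147 CPM in unsorted SST-rich cells, 3.79-fold (3.33 to 4.31) between the sorted ones. A PCDH7 UMI was found in 28 of 41 positive and 52 of 109 negative SST-rich cells, and the cell with the most gave 18.9% and 17.4% of the UMIs. CDH4 stood at 110.0, 46.9 and 53.7 CPM, 2.35-fold (1.92 to 2.87). INS in the same cells was at 16603 CPM in positive, 11917 CPM in negative and 16588 CPM in unsorted cells, and its part in the PCDH7 difference was not tested. With cells weighted equally CDH4 no longer passed, at a log2 ratio of 0.99 against 1.08, and in clusters built from all genes it was 0.29.

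Within TPH1-rich cells 2 of 14 members passed 2-fold, CDH18 and PCDH7, against 1.19% of 8415 genes at least 2-fold apart. CDH18 stood at 474 CPM in positive cells and at 137 CPM in both negative and unsorted cells, 3.47-fold (3.23 to 3.72) between the sorted ones. PCDH7 stood at 146, 64.9 and 113 CPM, 2.25-fold (1.999 to 2.53). A PCDH7 UMI was found in 38 of 77 positive, 83 of 368 negative and 86 of 359 unsorted TPH1-rich cells. The cell with the most gave 13.2%, 14.4% and 9.51% of those UMIs. PCDH11X stood at 21.3, 7.69 and 6.20 CPM, 2.77-fold (1.99 to 3.84), but its log2 ratio was 0.82 with 10 CPM added and −0.55 in clusters built from all genes. PCDH9 was 1.75-fold (1.59 to 1.92) higher without passing. At the other end, CDH12 was 0.649-fold (0.584 to 0.719), PCDH17 0.535-fold (0.414 to 0.683) and PCDHB2 0.547-fold (0.371 to 0.785). PCDHB5 stood at 11.7 CPM in positive, 24.4 CPM in negative and 19.98 CPM in unsorted cells, 0.478-fold (0.327 to 0.679). Of these 4, none passed the 2-fold rule once 10 CPM were added.

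Other values of the positive TPH1-rich cells moved as well. INS stood at 8626 CPM there, against 4831 CPM in negative and 4305 CPM in unsorted TPH1-rich cells. The serotonin-lineage transcription factor FEV was at 471, 986 and 802 CPM. The 4 proliferation markers summed to 105, 18.4 and 9.21 CPM. Without the 3 positive and 13 negative cells that held a UMI of one, the CDH18 log2 ratio was 1.76, against 1.72 with them. Without the tenth of cells with the most INS it was 1.69. In clusters built from all genes it was 0.95, and no member then passed in the TPH1-rich class.

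Partners of cadherins were read by the same rules. Of 11 catenins and plakins, which tie cadherins to actin and to intermediate filaments, all had enough counts and none passed 2-fold over all cells or in any class, where 0.104% to 1.19% of all genes did, so a list of this size would seldom hold one. CTNNB1 (beta-catenin) stood at 229 CPM in positive, 175 CPM in negative and 207 CPM in unsorted cells. CTNNA3, an alpha-catenin known from heart, was at least 2-fold highest in TPH1-rich cells, at 457, 455 and 561 CPM, against 190.4, 191 and 199 CPM in INS-rich cells. Among the 25 other genes of the cadherin superfamily 11 had enough counts and none passed between sorted cells. FAT1, a giant atypical cadherin, was at least 2-fold highest in GCG-rich cells, at 66.6, 51.1 and 65.7 CPM, and RET, the receptor for GDNF-family ligands, in TPH1-rich cells, at 55.0, 82.0 and 75.9 CPM. The 9 nectin and protease genes, of which 8 had enough counts, held no gene past 2-fold between sorted cells and none that was at least 2-fold highest in 1 class. NECTIN3, an adhesion protein of the nectin family, was still highest in TPH1-rich cells of every library, at 212, 254 and 274 CPM.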

How the data were processed

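The authors deposited filtered UMI counts per gene and cell for 3 libraries, 1 per group, made with Cell Ranger 7.1.0 on GRCh38 per the submitters' processing notes; whether intronic reads were counted is not given in the sources used here. All deposited values were whole. Cells with under 1000 genes or over 20% mitochondrial UMIs were left out. No doublet caller was run. A cell was X-rich where X (INS, GCG, SST or TPH1), per 10000 UMIs over the 99th percentile of unsorted cells, had a ratio of at least 0.1 and led by 2-fold; 455, 665 and 626 positive, negative and unsorted cells had no class. UMIs were summed per library and class and scaled to CPM. With 1 library a group there is no test: folds are of CPM with exact intervals (SciPy 1.17.1), and calls need a log2 ratio beyond 1 after adding 10 CPM, for genes with 20 CPM and 50 UMIs in a compared group. The fold rule was tested on simulated counts with counting error alone and changes larger than 2-fold. That run cannot speak to calls near 2-fold or to spread between cells or libraries. Members are named where they reached that level. Members and lists were chosen with earlier results of these data known. Gene positions and lengths are GENCODE 29 and promoters RefSeq, which held 70 of 89 members and 14 of the 17 named. Alternatives covered pseudocounts, filters, scaling, cell weights, class rules and Leiden clusters (scanpy 1.11.5).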

Additional observations from a re-analysis of the deposited data

Results flagged for a closer look

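CDH12 and PCDH17 stood on opposite sides of 1 in different classes of the same sort comparison, with counting intervals clear of 1, and the difference between classes was not tested. The log2 ratio of positive over negative for CDH12 was 0.12 in INS-rich, 0.43 in GCG-rich and 0.48 in SST-rich cells but −0.59 in TPH1-rich cells. For PCDH17 it was 0.31 in INS-rich and 0.20 in GCG-rich cells and −0.69 in TPH1-rich cells. Both kept the negative sign in TPH1-rich cells under the 12 other settings run, from −0.73 to −0.49 for CDH12 and from −0.88 to −0.36 for PCDH17. CDH12 in SST-rich cells turned to −0.28 under the stricter class rule.

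Barcodes left out by the cell filter, which no comparison above uses, also held members. In the positive library 2118 such barcodes, at a median of 781 UMIs, held 1446 CPM of member RNA, against 931 CPM in 590 barcodes of the negative and 1129 CPM in 555 barcodes of the unsorted library. PCDH7 stood there at 428, 95.8 and 207 CPM and CDH18 at 292, 129.5 and 159 CPM.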

How the results depend on the processing

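Of 147 recomputed counts of members called, 137 stayed within 1.5 times the reported count. The 12 reported counts were each 0, 1 or 2, most of them 0, and a 0 that stayed 0 is among the 137. That share therefore says little about how firm the calls are. With 1 CPM added, CDH13 gave 1 member lower over all cells, and 4 members were at least 2-fold apart in TPH1-rich cells. With 50 CPM added, or with each cell weighted equally, 1 member was left in SST-rich (PCDH7) and 1 in TPH1-rich cells (CDH18). With classes from Leiden clusters, which use the members' own counts, 0 were left in TPH1-rich cells and 2 were highest in SST-rich cells, CDH13 and PCDH9; each cluster was scored against the cluster where the class gene was highest, since percentiles over single cells left most clusters unnamed. In the negative and unsorted libraries alone, an alternative chosen after seeing the data, 2 members were highest in INS-rich and 1 in TPH1-rich cells. The cause of these changes was not tested.

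Of 64 recomputed member ratios, 45 kept their sign in every setting run and 19 did not, none of those 19 past the 2-fold rule with 10 CPM added. Members above 0 numbered 11 to 13 of 13 in INS-rich and 10 to 11 of 11 in GCG-rich cells. The largest shift of the median gene under another scaling was 0.06 on the log2 scale. Precision is least for SST- and TPH1-rich cells of the positive library, with 41 and 77 cells. No paired analysis was possible because each group was 1 library.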
